A study of Mus musculus with 4 samples.

Results

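The genes described here are 10 aldo-keto reductases of the mouse, *Akr1b3*, *Akr1b7*, *Akr1b8*, *Akr1b10*, *Akr1c12*, *Akr1c13*, *Akr1c18*, *Akr1c19*, *Akr1e1* and *Akr1cl*, taken by name from a matrix of 16892 genes. All 10 have a row. Single cells were profiled from the epididymis, the coiled duct in which sperm mature, and from the vas deferens that follows it. Tissue of 4 FVB/NJ males of 10 to 12 weeks was dissected into caput, corpus, cauda and vas deferens, and the 8 pieces of a region were pooled and sequenced as a single 3′ library made with 10x droplets. The labels give no treatment and no engineered allele, so the 4 groups are told apart by the region dissected, and region and library cannot be told apart. The libraries held 8880 cells in 34 populations of the authors' table, among them 15 subclusters of principal cells, the main absorptive and secretory cells of the epithelium. With 1 library per region no value has a replicate, no test between regions was possible and none was run.

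Aldo-keto reductases are soluble barrel-shaped enzymes that use NADPH to reduce aldehydes and ketones to alcohols. The Akr1b branch holds aldose reductase, which turns glucose into sorbitol in the first step of the polyol pathway, and relatives that act on aldehydes from lipid peroxidation and steroid cleavage. The Akr1c branch holds hydroxysteroid dehydrogenases, which switch steroid hormones between active and inactive forms. In the male tract the family is best known for *Akr1b7*, the androgen-dependent mouse vas deferens protein.

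Levels are given as UMIs of a gene per 1000000 UMIs of a group of cells (UPM), where a UMI stands for 1 captured transcript molecule. As tags were read at transcript ends, the length of a gene does not enter its level. Brackets hold 95% intervals, exact Poisson for levels and exact conditional binomial for ratios. These take UMIs as independent, cover counting error only and leave out variation between cells, animals and dissections. Depth differed between libraries, with 4408989 to 10744928 UMIs and medians of 1433 to 2207 UMIs per cell, and in principal cells 3 UMIs, the floor used for a count of 0, were worth 0.641 UPM in the vas deferens and 1.72 to 2.11 UPM in the other libraries. Of 7 lists of cell type markers, 5 had their highest summed level in the cell type they mark, and no type lacked a marker of its own. The epithelial list used for principal cells was higher in basal cells (6432 UPM) than in principal cells (4176), and the immune list was higher in principal cells owing to *Cd52*, without which it had 2860 UPM in immune cells and 1.15 in principal cells. There were 43 barcodes found in 2 libraries, and no such pair lay within 1 population.

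Of the 10 genes, 9 lie in a pair of clusters on GRCm38. *Akr1b3*, *Akr1b8*, *Akr1b10* and *Akr1b7* follow each other within 119 kb of chromosome 6, and *Akr1b7* itself spans 34412362 to 34423137. *Akr1c18*, *Akr1c13*, *Akr1c19* and *Akr1c12* lie within 147 kb of chromosome 13, with *Akr1e1* a further 312 kb on. *Akr1cl* stands alone on chromosome 1, at 65013078 to 65032759. Its coding sequence was nevertheless most like that of *Akr1c18*, with 77.6% identical bases. The closest pair in coding sequence was *Akr1c12* and *Akr1c13* (96.2%), followed by *Akr1b7* and *Akr1b10* (89.3%), while pairs that lay outside both the Akr1b and the Akr1c branch had a median of 56.8%.

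The start regions are shown for *Akr1b7*, *Akr1cl* and *Akr1b10*, the members with the largest levels in the vas deferens, and for the closest pair. Each runs from 250 bases before to 50 bases after the RefSeq start, on GRCm38.p6 and on the strand of the gene. RefSeq promoters were at hand for 9 of the 10 genes. Capitals in the first 3 mark letters of 4 motifs searched on both strands, AGAACA, the hexamer repeated in the androgen response element, TGACNNNGC, the core of the antioxidant response element, TCAAGGTCA, a site of NR5A receptors, and TATAAA. The intervals are chr6:34412112-34412411 for *Akr1b7* (plus strand), chr6:34383997-34384296 for *Akr1b10* (plus strand) and chr1:65032710-65033009 for *Akr1cl* (minus strand).
Akr1b7: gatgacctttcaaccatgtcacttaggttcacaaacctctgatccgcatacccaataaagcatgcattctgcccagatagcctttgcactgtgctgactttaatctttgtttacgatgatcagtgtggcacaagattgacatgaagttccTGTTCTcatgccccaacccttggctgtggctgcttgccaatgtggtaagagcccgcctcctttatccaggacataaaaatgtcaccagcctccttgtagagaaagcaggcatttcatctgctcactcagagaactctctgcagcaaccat
Akr1b10: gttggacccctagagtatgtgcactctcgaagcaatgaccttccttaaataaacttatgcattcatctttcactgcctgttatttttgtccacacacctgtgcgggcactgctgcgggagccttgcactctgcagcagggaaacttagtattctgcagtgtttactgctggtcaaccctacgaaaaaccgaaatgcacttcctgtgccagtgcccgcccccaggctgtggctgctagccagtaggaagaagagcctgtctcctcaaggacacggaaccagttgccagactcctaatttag
Akr1cl: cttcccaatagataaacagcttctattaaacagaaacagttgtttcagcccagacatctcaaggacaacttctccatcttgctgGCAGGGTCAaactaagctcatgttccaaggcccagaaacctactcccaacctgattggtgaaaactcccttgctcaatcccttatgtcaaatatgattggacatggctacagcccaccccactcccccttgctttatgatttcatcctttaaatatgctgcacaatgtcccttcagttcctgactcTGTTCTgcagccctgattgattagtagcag

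The androgen hexamer was found once in the *Akr1b7* window, on the minus strand at -100 to -95 from the start, and once in that of *Akr1cl*, at 21 to 26 after it. Among all 32851 RefSeq promoters of this length 19.0% held these letters, beside 2 of the 9 windows of members. The *Akr1cl* window also held the antioxidant core at -166 to -158, which 12.4% of promoters have, and the *Akr1b10* window held none of the 4 motifs. Over the other 6 windows there was a TATAAA at *Akr1b8* (13.6% of all promoters), on the minus strand at -159 to -154. An antioxidant core lay at *Akr1c19*, on the minus strand at 8 to 16 after the start. The NR5A letters, present in 0.423% of promoters, were in none of the 9 windows. These letters are a description of the sequence and show no binding.

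The windows of *Akr1c12* (chr13:4279350-4279649, minus strand) and *Akr1c13* (chr13:4190937-4191236, plus strand) are set side by side because they were alike in 93.4% of aligned bases, against a median of 46.8% for the other pairs of the 9 windows. Capitals here mark the 16 bases of each that had no equal in the alignment.
Akr1c12: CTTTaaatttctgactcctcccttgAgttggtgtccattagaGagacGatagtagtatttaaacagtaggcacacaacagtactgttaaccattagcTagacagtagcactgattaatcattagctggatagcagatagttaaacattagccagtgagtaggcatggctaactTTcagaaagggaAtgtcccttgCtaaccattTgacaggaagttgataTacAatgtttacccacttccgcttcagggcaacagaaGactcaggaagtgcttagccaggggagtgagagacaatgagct
Akr1c13: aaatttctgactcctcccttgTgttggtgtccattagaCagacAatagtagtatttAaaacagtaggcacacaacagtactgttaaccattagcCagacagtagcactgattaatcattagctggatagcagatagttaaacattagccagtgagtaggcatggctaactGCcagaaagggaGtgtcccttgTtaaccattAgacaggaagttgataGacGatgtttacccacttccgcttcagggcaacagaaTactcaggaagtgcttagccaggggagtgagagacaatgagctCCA

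In principal cells the family changed its makeup along the duct. *Akr1b7* and *Akr1cl* were restricted to the vas deferens, *Akr1c18* was restricted to the corpus, and *Akr1c12*, *Akr1c13* and *Akr1c19* were higher in corpus and cauda than at either end, least clearly for *Akr1c13*, whose vas deferens level was nearest to that of the corpus. Restricted means here that a gene had 20 UMIs or more in a library and a level 4 or more times that of each of the others, after raising those to the floor. By this rule 3 of the 9 members able to pass were restricted, beside 6.76% of genes able to do so, and 2 of the 9 were restricted to the vas deferens, against 1.6%. The members were named for their family, but *Akr1b7* was already known from these data, so the counts describe the list and are no test of it.

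The level of *Akr1b7* was 4.06 UPM for caput, 31.0 for corpus, 432.3 for cauda and 51317 (51112 to 51523) for vas deferens principal cells. The summed level was therefore higher at each step of the duct. The last step was the largest, with a ratio of 119 (111 to 128) between vas deferens and cauda. The cauda level rested on few cells, since 47 of 931 held 98.3% of its 752 UMIs. In the corpus 34 of 929 cells held the 44 UMIs.

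*Akr1cl*, a relative of the Akr1c branch, had 0 UMIs in caput and corpus alike, 2 in the cauda (1.15 UPM) and 1632 in the vas deferens (348.5 UPM, 331.8 to 365.9). It was the member most confined to that library, at 303 times the cauda with an interval of 83.8 to 2506, which is wide because only 2 cauda UMIs stand behind it. With the cauda raised to the floor the ratio was 165.

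*Akr1b10*, the neighbour of *Akr1b7* and its closest relative in coding sequence, stood at 4.06 UPM for caput, 18.3 for corpus, 6.32 for cauda and 68.1 (60.9 to 76.0) for vas deferens cells. It too was highest in the vas deferens, but at 3.72 times the corpus (2.49 to 5.78) it fell just short of the fold asked for. In cells of at least 1000 UMIs the ratio was 4.11, which passes. It did not pass as a mean over cells (3.14), with the authors' size factors (3.40) or in the remaining alternatives (3.65 to 3.92). The other neighbours in the chromosome 6 cluster did not share this pattern in principal cells, where *Akr1b3* was lowest in the vas deferens (5.13 UPM) and *Akr1b8* had 1 to 26 UMIs per library.

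*Akr1c19* stood at 5.80 UPM for caput, 122.6 for corpus, 155.8 for cauda and 13.03 for vas deferens cells. *Akr1c12* had 1.74, 54.3, 47.7 and 6.19 UPM in the same order. Both were thus high in the middle of the duct. The ratio of cauda to corpus was 1.27 (1.05 to 1.55) for *Akr1c19*, but 1.91 as a mean over cells and 2.34 with the authors' size factors, and that of corpus to cauda was 1.14 (0.823 to 1.57) for *Akr1c12*. *Akr1c13* had 10.4, 55.7, 136.8 and 32.7 UPM, so that it was 2.46 times higher in the cauda than in the corpus (1.90 to 3.21) and stayed higher than its near twin *Akr1c12* in the vas deferens.

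*Akr1c18*, the 20-alpha-hydroxysteroid dehydrogenase that inactivates progesterone, had 7 caput UMIs (4.06 UPM), 46 corpus UMIs (32.4 UPM), 1 cauda UMI (0.575 UPM) and 34 vas deferens UMIs (7.26 UPM). Its corpus level was 4.47 times that of the vas deferens (2.80 to 7.17). The call depends on how cells are weighed. Without the cells whose barcode occurred in 2 libraries the ratio was 3.95, and in cells of at least 1000 UMIs it was 3.80, both under the threshold, while a mean over cells gave 10.0 and the authors' size factors 10.7.

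*Akr1e1*, an anhydrofructose reductase, was the most even of the members, with 16.8, 12.7, 15.5 and 26.1 UPM from caput to vas deferens. *Akr1b3*, aldose reductase, had 8.70, 15.5, 24.1 and 5.13 UPM. The highest level was 1.55 times the next for *Akr1e1* (1.03 to 2.41) and 1.56 times for *Akr1b3* (0.909 to 2.74), so that for *Akr1b3* the order of cauda and corpus was within counting error. The members nearest the threshold were *Akr1b10* below it at 3.72 and *Akr1c18* above it at 4.47.

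**Figure D1:**
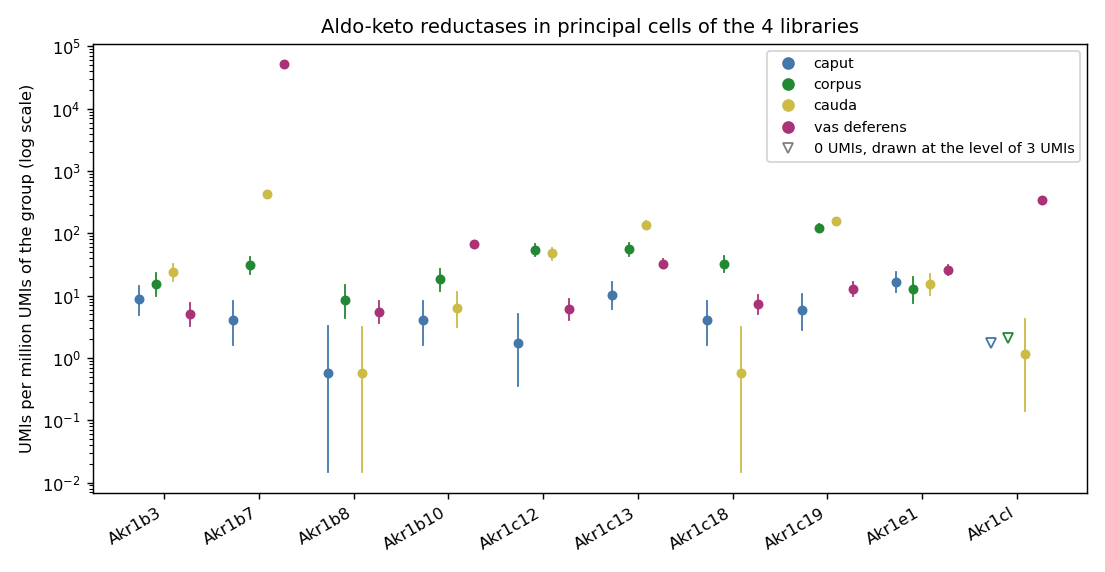
Level of the 10 members in principal cells of each library, in UMIs per 1000000 UMIs on a log axis. Points are levels of 1 library each and lines are 95% Poisson intervals; open triangles mark 0 UMIs and stand at the level of 3 UMIs. *Akr1b7* goes from 4.06 in the caput to 51317 in the vas deferens, whereas the corpus and cauda points of *Akr1c12*, *Akr1c13* and *Akr1c19* sit above those of either end.

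Summed, the 10 members took 0.00563% of the UMIs of caput, 0.0351% of corpus, 0.0821% of cauda and 5.18% (5.16 to 5.20) of vas deferens principal cells. The leading member changed from *Akr1e1* in the caput (29.9% of member UMIs) to *Akr1c19* in the corpus (34.9%) and to *Akr1b7* in the cauda (52.7%) and the vas deferens (99.0%). In the cauda this lead came from few cells, as 47 of 931 held 98.3% of the *Akr1b7* UMIs. Among subclusters made up mostly of cauda cells, *Akr1c19* led in principal 8 (33.3%) and principal 10 (38.6%), and *Akr1b7* in principal 9 (63.1%). Without *Akr1b7* the other 9 members still summed to 52.2 UPM for caput, 320.0 for corpus, 388.6 for cauda and 512.6 for vas deferens cells.

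The 15 principal subclusters split these regions further. The subclusters were built from the same genes, so the following levels describe them and test nothing. *Akr1b7* had 32958 UPM in principal 12, 49736 in principal 13, 70894 in principal 14 and 96185 in principal 15, which are at least 98.8% vas deferens cells. The intervals of these 4 subclusters did not overlap, but they leave out the spread between cells. Depth fell along the same series, with medians of 2344, 1540, 1474 and 933 UMIs per cell, and its part in the order was not tested. In cells of at least 1000 UMIs the median share of a cell's UMIs kept the order, at 3.49%, 5.04%, 7.39% and 9.43%.

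*Akr1b10* and *Akr1cl* were likewise highest in principal 15. *Akr1b10* had 48.0 UPM in principal 12, 68.7 in principal 13, 88.5 in principal 14 and 114.4 in principal 15, where neighbours in the order had overlapping intervals. *Akr1cl* had 528.1 UPM in principal 15 (479.6 to 580.2) and 356.1 in principal 14, a ratio of 1.48 (1.24 to 1.78), and 319.0 and 334.5 UPM in the vas deferens cells of principal 13 and 12.

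Cells of cauda and vas deferens met in principal 9 and principal 11, subclusters that held *Akr1b7* as well as *Akr1c13* and *Akr1c19*. *Akr1cl* was all but missing there, with a UMI in 0% of the 129 cells of principal 9 and 2.05% of the 244 of principal 11, without thinning. In principal 11 *Akr1b7* had 330.2 UPM in the 141 cauda cells and 12089 in the 100 vas deferens cells. *Akr1c19*, by contrast, had 188.7 UPM (139.1 to 250.2) in the cauda cells and 178.9 (107.7 to 279.3) in the vas deferens cells of that subcluster, with *Akr1c13* at 145.5 and 141.2 UPM. In principal 9 the 26 vas deferens cells had 1617 UPM of *Akr1b7* and 204.9 of *Akr1c13*, against 226.7 and 153.7 in the 100 cauda cells. Within these subclusters the intervals of *Akr1c13* overlapped between the libraries, as did those of *Akr1c19* (103.7 and 136.6 UPM in cauda and vas deferens cells of principal 9), while those of *Akr1b7* did not. Cell types other than principal cells had 426.8 to 4225 UPM of *Akr1b7* in the vas deferens library. The 1617 UPM of principal 9 lie within that range, and the part of this background in the difference was not tested.

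The Akr1c genes peaked in other subclusters. *Akr1c19* peaked in principal 6 at 225.5 UPM (182.6 to 275.3), which did not differ beyond counting error from principal 11 (185.1, ratio 1.22, 0.882 to 1.69). *Akr1c12* and *Akr1c18* peaked in principal 7, at 79.2 and 51.3 UPM, and *Akr1c13* in principal 9, at 170.6. For *Akr1c18* all 33 UMIs of principal 7 came from 21 corpus cells.

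Single cells were less uniform in the cauda than in the vas deferens. Of 773 vas deferens principal cells with at least 1000 UMIs, 727 (94.0%) gave at least 1% of their UMIs to *Akr1b7*, with a median of 5.20% and a highest cell of 19.7%. In the cauda 4 of 433 such cells did, the median was 0, and the highest cell had 4.53%. The 752 cauda UMIs came from 60 of 931 cells, and the 47 richest cells held 98.3% of them. In principal 12 to 15 every cell of at least 1000 UMIs had *Akr1b7*, and in principal 11 the median was 0 among 65 cauda cells and 0.836% among 28 vas deferens cells, 11 of which had none. After thinning of each cell to 1000 UMIs, 96.6% of vas deferens principal cells (95.1 to 97.8, Clopper-Pearson), 6.005% of cauda, 1.73% of corpus and 0 of 342 caput cells had a UMI of *Akr1b7*. A count of 0, taken as at most 3 cells, allows a share of up to 0.877% there, and without thinning the 4 shares were 93.7%, 6.44%, 3.66% and 0.679%. The background for this share was taken from immune and endothelial cells of the same libraries, and whether they transcribe *Akr1b7* was not tested. It was 13.7% of 211 vas deferens, 0 of 37 cauda, 1.54% of 65 corpus and 0 of 45 caput cells. In the corpus these cells were too few to set a share of 1.73% apart from them. In the cauda other cell types gave a wider background without thinning, where *Akr1b7* had a UMI in 0 of 193 basal, 0 of 289 stromal, 1 of 105 clear and 1 of 58 muscle cells, against 60 of 931 principal cells with up to 202 UMIs in a cell.

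**Figure D2:**
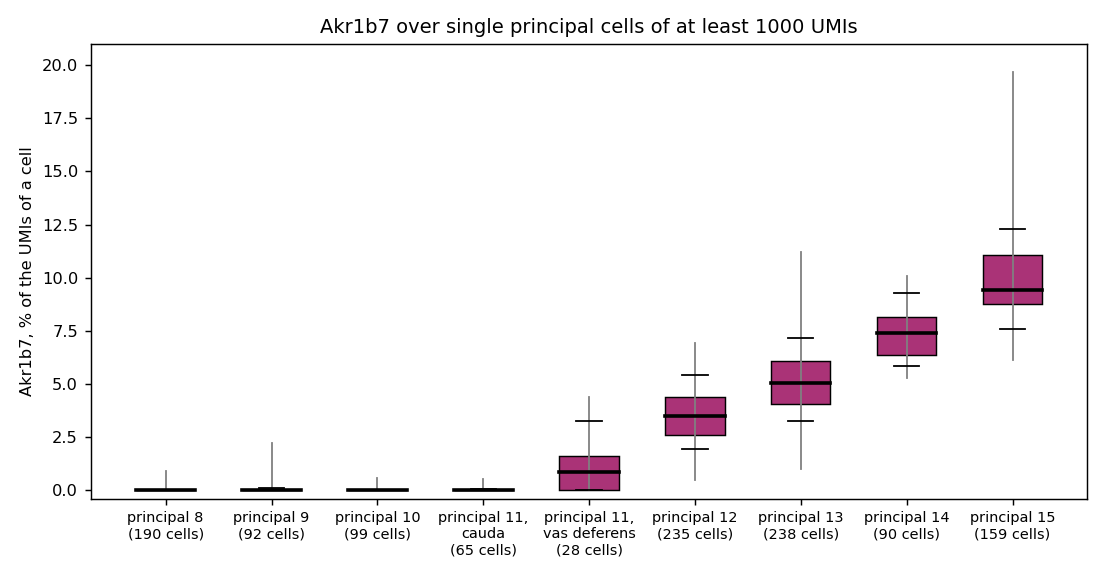
*Akr1b7* as a percentage of the UMIs of each principal cell of at least 1000 UMIs, for subclusters of cauda (yellow) and vas deferens (purple) cells, with the number of cells below each name. Boxes run between the quartiles, thick lines are medians, short bars the 10th and 90th percentiles and thin lines the full range; principal 8 to 10 are mostly cauda cells. Medians go from 3.49% in principal 12 to 9.43% in principal 15.

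The less abundant members were found in a part of the cells. *Akr1cl* had a UMI in 26.4% of thinned vas deferens principal cells (39.4% without thinning) and in 35.8% of those in principal 15. *Akr1c19* and *Akr1c13* each had one in 12.9% of thinned cauda cells, and their shares in the vas deferens were 1.03% and 3.10%. Immune and endothelial cells were again taken as the background, and that they lack these genes was assumed and not tested. With *Akr1c19* it was 0 of 37 cauda cells, which by the same count of 3 cells allows up to 8.11%, as for *Akr1c13*. With *Akr1cl* it was 1.42% of 211 vas deferens cells. Median depths were 889 UMIs in cauda principal cells and 3688 in the cauda background cells, and 1287 and 2515 in the vas deferens.

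Outside principal cells *Akr1b7* was seen in every cell type of the vas deferens library and hardly at all elsewhere. It had 4225 UPM in clear cells, 978.4 in basal, 872.0 in muscle, 582.8 in immune, 470.7 in endothelial and 426.8 in stromal cells of the vas deferens. In the 3 epididymal libraries the same types had at most 6 UMIs each per library. Among basal cells *Akr1b7* was the 1 of 3 members able to pass that was restricted to a library, the vas deferens, against 1.99% of genes. The same held in stromal cells for 1 of 4, against 2.26%. Clear, muscle, endothelial and immune cells were too few in at least 1 library for this count, for which 50 cells were required in each.

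How these UMIs were spread over cells differed between types. In muscle 31 of 437 cells had *Akr1b7*, and 8 cells with at least 20 UMIs held 79.4% of the 1100 UMIs, up to 302 in a cell. In clear cells 5 of 38 cells held 93.5%. In basal cells 115 of 394 cells had a median of 9 UMIs each, and the 8 cells with at least 20 held 23.8%. Such cells held 34.5% in stromal, 29.9% in endothelial and 21.4% in immune cells, so that most UMIs came from few rich cells in muscle and clear cells, and from cells with under 20 UMIs in the other 4 types.

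Another transcript of vas deferens principal cells was set beside it. *Akr1b7* outnumbered *Akr1cl* 147 to 1 in principal cells, 120 to 1 in basal cells (66.9 to 241) and 127 to 1 in clear cells (54.0 to 391). The basal and clear values rest on 11 and 5 UMIs of *Akr1cl*. Their intervals overlapped that of principal cells, but also those of muscle, endothelial and immune cells given next. The ratio was lower in the other types, at 78.6 in muscle (46.6 to 144), 34.5 in stromal (24.2 to 51.1), 35.7 in endothelial (16.1 to 98.3) and 39.2 in immune cells (16.5 to 122), which rest on 5 to 31 UMIs of *Akr1cl* each. All but the muscle interval lay below that of principal cells (140 to 155). Epithelial markers summed to 86.1 UPM in vas deferens stromal cells, 123.7 in muscle, 129.8 in endothelial and 237.9 in immune cells, against 4783 in principal cells. In the same order, the level of *Akr1b7* was 0.832%, 1.70%, 0.917% and 1.14% of that in principal cells. Whether free RNA, doublets or transcription in these cells gave the UMIs was not tested, and the authors' removal of ambient RNA is already in the counts.

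**Figure D3:**
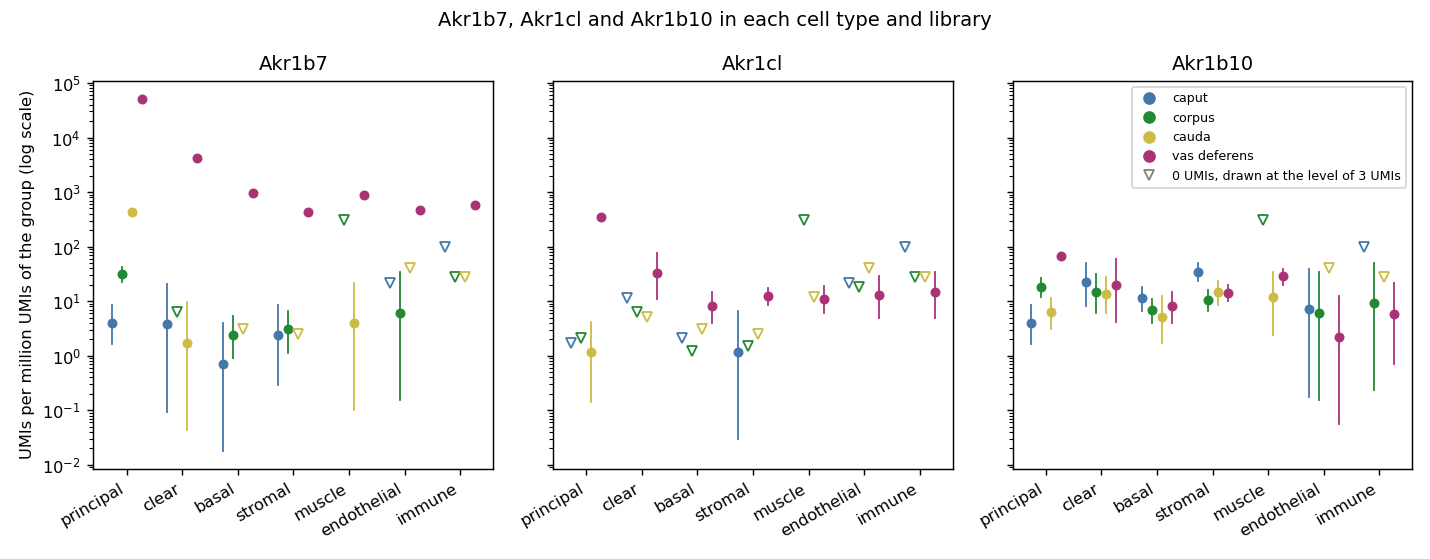
Levels of *Akr1b7*, *Akr1cl* and *Akr1b10* in 7 cell types of the 4 libraries, in UMIs per 1000000 UMIs on a log axis with 95% Poisson intervals. Open triangles stand for 0 UMIs at the level of 3 UMIs, and no caput muscle cells were recovered. Purple points of the vas deferens lie above all others in every cell type for *Akr1b7* (426.8 to 51317), but not for *Akr1b10*.

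Among cell types *Akr1b3* was highest in stromal (51.0 UPM) and basal cells (50.1), and *Akr1b8* in stromal cells (25.4). The other supporting types had 8.52 UPM of *Akr1b3* in muscle, 9.58 in endothelial and 15.5 in immune cells, against 10.8 in principal cells. Of 791 *Akr1b3* UMIs, 41.8% were in stromal cells, 39.2% in basal cells and 13.02% in principal cells. In basal cells *Akr1b3* stood at 24.8 UPM for caput, 40.6 for corpus, 92.0 for cauda and 64.4 for vas deferens. In stromal cells it had 34.7, 56.9, 109.1 and 24.7 UPM. In both types the cauda was highest, at 1.43 times the vas deferens in basal cells (1.05 to 1.94) and 1.92 times the corpus in stromal cells (1.48 to 2.49). The highest population was the fibroblasts (94.1 UPM, 70.3 to 123.4), where 44 of the 52 UMIs came from 74 cauda cells.

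*Akr1b8*, a growth factor-inducible relative of aldose reductase, was a stromal gene of the far end of the duct. In stromal cells it stood at 3.59 UPM for caput, 6.10 for corpus, 23.0 for cauda and 49.0 (40.7 to 58.5) for vas deferens. The vas deferens level was 2.13 times that of the cauda (1.40 to 3.36). Different populations make up these cells, since 517 of the 1015 vas deferens stromal cells were stem-like and 213 secretory vas stromal cells. Within connective stromal cells, found in all 4 libraries, *Akr1b8* had 3.95, 5.34, 10.2 and 42.7 UPM (27.9 to 62.6 in the vas deferens) in the same order. It was highest in the secretory vas stromal population (69.6 UPM), followed by fibroblasts (47.1) and stem-like vas stromal cells (36.8), with intervals of the first pair overlapping. In basal cells it did not pass 13.4 UPM in any library.

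*Akr1b10* in stromal cells ran against its pattern in principal cells, with 34.7 UPM in the caput (23.2 to 49.8) and 10.7, 14.5 and 14.3 UPM from corpus to vas deferens. Muscle cells of the vas deferens had 28.5 UPM (19.99 to 39.5). *Akr1e1* was found at 22.6 to 32.1 UPM in clear cells of every library, next to 12.7 to 26.1 in principal cells. The clear cell levels rest on 40 UMIs in all, with 4 in the vas deferens (26.7 UPM, 7.27 to 68.4).

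**Figure D4:**
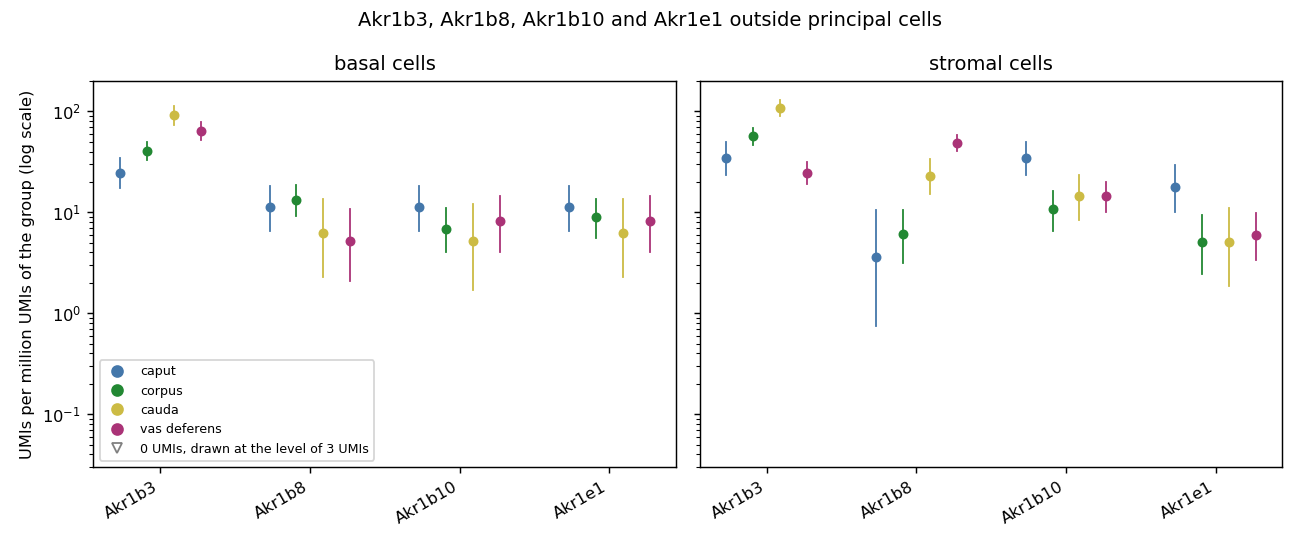
Levels of *Akr1b3*, *Akr1b8*, *Akr1b10* and *Akr1e1* in basal (left) and stromal (right) cells of each library, in UMIs per 1000000 UMIs on a log axis, with 95% Poisson intervals. *Akr1b3* is highest in the cauda in both types (92.0 and 109.1), and *Akr1b8* in stromal cells goes from 3.59 in the caput to 49.0 in the vas deferens.

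Over the 34 populations, 9 of the 10 members had a population with at least 20 UMIs and at least 4 times their median level, against 45.3% of genes tested. The exception was *Akr1e1*, at 3.79 times. As many genes pass this rule, it says little of a single gene. Patterns were also compared by Pearson's r of log2(UPM + 10) over the 34 populations, which share libraries, depth and, for a part, cells of 1 type, so that r is a description only. *Akr1c12* and *Akr1c19* had an r of 0.93, *Akr1c13* and *Akr1c19* 0.85, *Akr1c12* and *Akr1c13* 0.85, and *Akr1b7* and *Akr1cl* 0.79. *Akr1b7* and its neighbour *Akr1b10* had 0.73, whereas *Akr1b3*, at the other end of the same cluster, had -0.34 with *Akr1b7* and -0.48 with *Akr1b10*.

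Among 9280 genes with at least 200 UMIs, the 5 most like *Akr1b7* were *Aqp2*, a water channel (r 0.92), *Fxyd4*, a regulator of the sodium pump (0.92), *Fam129a* (0.90), *Crygc*, a crystallin (0.89), and *Ptgr1*, a prostaglandin reductase (0.88). *Akr1cl* was followed by *Crygb* (0.92), *Eci3*, *D630023F18Rik*, *Gm9573* and again *Aqp2* (0.90). *Akr1c19* was nearest to *Cyp2j13* (0.96), *Wfdc16*, *Slc52a3*, *Gm17252* and *Lrp2*, an endocytic receptor (0.94), and *Akr1c12* to *Wfdc16* (0.94), *Akr1c19*, *Gm17252*, *Defb40* and *Cyp2j13*. *Akr1c13* was nearest to *Cbs* (0.87), *Lrp2*, *Defb11*, *Ly6f* and *Wfdc15b*. *Akr1b8* was nearest to stromal genes, with *Fndc4* first (0.85) and then *Cpxm1*, *Layn*, *C7* and *Gfpt2*, and *Akr1b3* to *Cp*, ceruloplasmin (0.80), *Por*, the electron donor of cytochrome P450 enzymes (0.75), *Fmod*, *Sorcs2* and *Tmed5*. For *Akr1b10* (*Cdkl1*, *Rsph9*, *Phyh*, *Dpp6* and *Mro*, up to 0.84) and for *Akr1e1* (*Rnf5*, *Anapc13*, *Mien1*, *Mcee* and *Coa3*, up to 0.82) r was of like size to that of *Akr1b3*, and *Akr1c18* had too few UMIs to be compared.

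**Figure D5:**
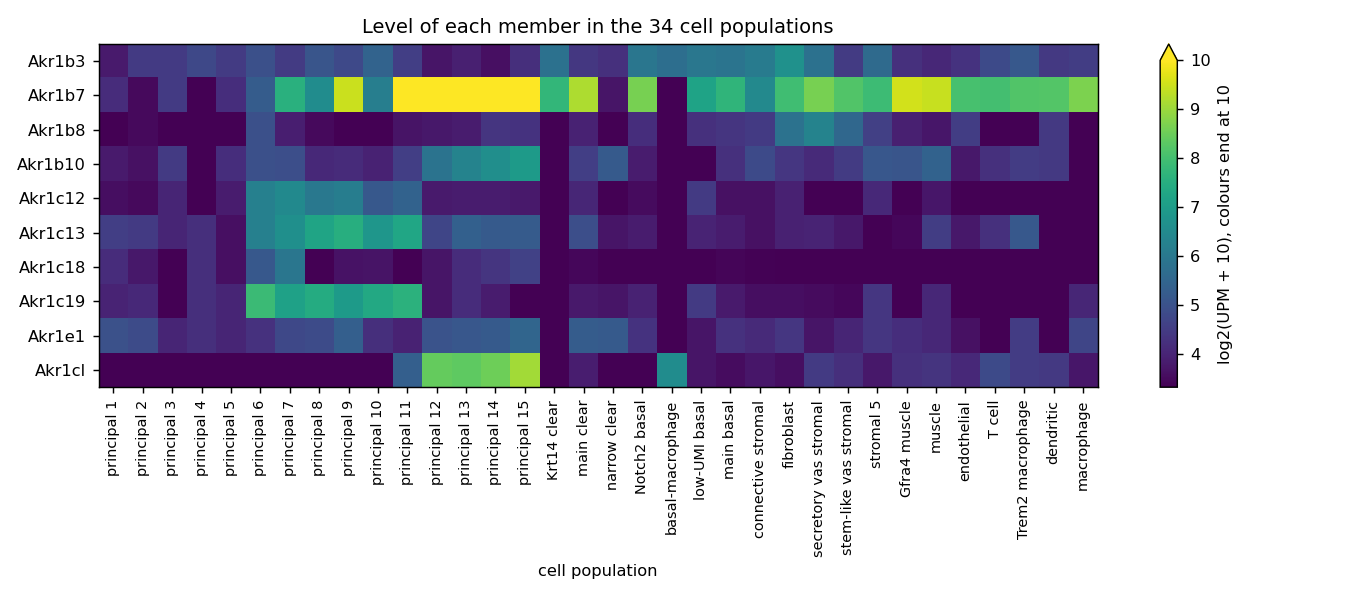
Levels of the 10 members (rows) in the 34 populations (columns), as log2(UPM + 10), with colours ending at 10. *Akr1b10* and *Akr1cl* are brightest in principal 12 to 15. *Akr1b7* reaches the end of the colours in principal 11 to 15 and is bright in many other populations too (median 241.8 UPM). *Akr1c12* is bright in principal 6 to 9, and *Akr1c13* and *Akr1c19* in principal 6 to 11. *Akr1b3* is bright in stromal and basal populations, and *Akr1b8* in stromal populations.

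Genes around the family were taken from 3 lists. In the polyol pathway and osmoprotection list (10 genes, all with a row) 0 of 8 genes able to pass were restricted to a library in principal cells. *Sord*, which oxidises the sorbitol made by aldose reductase, had 10, 4, 1 and 9 UMIs in principal cells from caput to vas deferens, and in basal cells 16.3, 24.3, 12.5 and 8.88 UPM, an order unlike that of *Akr1b3*. *Slc5a3*, the inositol transporter, had 186.8, 112.8, 89.7 and 44.4 UPM along the duct, lowest in the vas deferens.

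In the carbonyl and aldehyde metabolism list 2 of 16 genes were restricted in principal cells, both to the vas deferens, beside the 6.76% of all genes restricted to any library and 1.6% to the vas deferens. *Ptgr1* had 1.16, 4.93, 61.5 and 661.6 UPM along the duct, 10.8 times the cauda (8.87 to 13.2), and *Dhrs4*, a carbonyl reductase, had 33.7, 31.0, 42.5 and 178.1 UPM, 4.19 times the cauda (3.30 to 5.39). In basal cells 1 of 15 was restricted (1.99% of all genes), *Aldh3a1* in the corpus with 13.4 UPM and 33 UMIs. In the steroid list 1 of 12 was restricted in principal cells, a share near that of all genes, *Cyp17a1*, an enzyme of androgen synthesis, with 1.16, 157.9, 6.32 and 0 UPM and thus 25.0 times higher in the corpus than in the cauda (13.7 to 50.7). In stromal cells 1 of 11 was (2.26% of all genes), *Hsd11b1*, which regenerates active glucocorticoid, with 214.0 UPM in the vas deferens and 48.6 in the cauda, a ratio of 4.41 (3.35 to 5.90). As for *Akr1b8*, different populations make up the stromal cells of the libraries, and their part in this ratio was not tested.

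Near-identical transcripts could have lost UMIs, since the authors left out reads with several alignments. Of the 50-base windows in the last 1000 bases of each coding transcript, 20.1% for *Akr1c12* and 19.98% for *Akr1c13* occurred in the other of this pair, including 10.3% of the last 300 windows. Their levels are therefore the less certain of the family. For *Akr1b3* 51.3% of windows occurred in other genes such as *Gm6644* but none of the last 300, and for the other 7 members at most 4.42% of windows were shared.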

How the data were processed

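The authors aligned reads with HISAT2 2.0.4 to mm10 (GRCm38), counted UMIs on RefSeq genes with ESAT, ignoring reads with several alignments, kept cells of 350 to 15000 UMIs and subtracted ambient RNA with a modified SoupX. The deposited matrix holds the resulting counts, 206 to 14922 UMIs per cell. The authors' table gives each cell's library, population and size factor, a deposited score used only in an alternative. Populations were not re-clustered, and their numbers were matched to the study's by cell number. From there, UMIs were summed over cells with Python 3.11.15 (numpy, scipy, pandas), shares of cells were taken after thinning to 1000 UMIs (seed 1), and coding sequences of GENCODE transcripts were aligned with Biopython 1.88. No doublet caller was run. The rules were tested on simulated data. The members and lists were chosen with earlier results of these data known. Besides the members, the genes named are those of the listed aldo-keto reductases, up to 5 restricted genes a list and the 5 genes most like each member of at least 200 UMIs (all but *Akr1c18*), and *Sord*, *Slc5a3*, *Cd52*, *Aldh3a1* and *Hsd11b1* were added after their values were seen. No columns of per-sample values were left unused. A ratio to a sum of other vas deferens genes is not reported here.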

Additional observations from a re-analysis of the deposited data

How the results depend on the processing

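With 1 library per region, no alternative can show variation between animals. In principal cells, of 13 alternatives for the count of 3 restricted members, 12 gave 2 or 3 members and a fold of 2 gave 5; *Akr1b7* and *Akr1cl* were among them in all 13. Of 17 alternatives for the 9 members enriched in a population, 16 gave 6 to 10, with 6 left without the vas deferens library, and the 4th highest population as reference gave 1, *Akr1c18*. The share of 5.18% taken by the members in vas deferens principal cells was 5.11% in cells of at least 1000 UMIs, 5.12% without the 5% of cells with the most UMIs, 5.91% as a mean over cells, 5.81% with the authors' size factors, 5.05% over UMIs before ambient removal, 6.13% without ribosomal protein and mitochondrial genes and 5.47% without the members in the total. The direction turned for *Akr1b8* (corpus over vas deferens 0.9501 in cells of at least 1000 UMIs) and *Akr1c12* (corpus over cauda 0.974 with size factors); the causes were not tested. Cells with a barcode in 2 libraries were left out as an alternative chosen after seeing the data. *Akr1b7* in the vas deferens was 93.9 to 227 times the cauda. No paired analysis was possible because each region has 1 library.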

Other observations

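Of 11 other aldo-keto reductases looked for, 6 had a row. *Akr1a1*, aldehyde reductase, and *Akr7a5*, an aflatoxin aldehyde reductase, had more UMIs (7834 and 2661) than any member but *Akr1b7*. *Akr1a1* stood at 585.4 UPM for caput, 272.1 for corpus, 274.2 for cauda and 450.0 for vas deferens principal cells, and at 768.4 UPM in principal 1. *Akr7a5* had 283.1, 277.7, 192.0 and 208.9 UPM in the same order, but within principal cells it stood out in principal 5, at 658.4 UPM and 2.19 times the next population (1.79 to 2.68). None of the 2 that could pass was restricted to a library in principal cells.

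*Akr1c14*, a 3-alpha-hydroxysteroid dehydrogenase, lies on chromosome 13 on the side of *Akr1c18* and was found in another cell type: 61.7% of its 47 UMIs were in endothelial cells, with 63.5 UPM for caput (9 UMIs), 60.8 for corpus (10), 53.5 for cauda (4) and 13.2 for vas deferens (6 UMIs, 4.84 to 28.7). *Kcnab1*, a potassium channel subunit of the wider family, had 78.4% of its 125 UMIs in stromal cells, where the vas deferens (25.1 UPM) was 2.60 times the corpus (1.54 to 4.603). Its highest population was the stem-like vas stromal cells (27.2 UPM), and the part of population makeup in this ratio was not tested. *Kcnab2* had 10 UMIs and *Kcnab3* 11 in all cells.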
